A study of Mus musculus with 36 samples.

Results

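Eosinophils sorted from skin were compared with eosinophils sorted from colon across all measured genes. The comparison used 6 of the 36 samples of the series, 3 libraries labelled skin and 3 labelled colon, chosen by tissue label and not by any measured value. Both groups were total eosinophils of wildtype C57BL/6 mice that were 8 to 12 weeks old, untreated, and pooled over males and females, and neither group carried a transgene or a deletion. The other libraries among the 24 of the same table came from bone marrow, blood, spleen, lung and small intestine of mice described in the same way. The bulk RNA of each sample was amplified by Smart-seq2, which copies whole transcripts from small inputs. Both tissues carry the replicate numbers 1, 2 and 4, and values per library are given in that order throughout. Whether replicates were separate animals is not stated in the labels, and the p-values therefore cover only the scatter among libraries, part of which may be technical.

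Eosinophils are granulocytes that mature in the bone marrow under interleukin 5, pass through blood and settle in tissues. The intestine holds a large resident population at steady state, close to an epithelium that meets microbes and food compounds. In skin they are sparse at rest and are best known from allergic inflammation, in which they release granule proteins, cytokines and chemokines that draw other leukocytes. The study concerns a neuropeptide that acts on small intestine eosinophils, and its tissue series allows the cells of 2 other barrier sites, skin and colon, to be set against each other.

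Values are in TPM, a level per transcript length that is scaled within a library. Differences are given as skin minus colon on the log2(TPM + 1) scale with the standard error (SE) of the limma fit, and this scale understates the change of low genes. A gene is called where its limma p, adjusted by Benjamini-Hochberg over all genes tested, is under 0.05. With 3 libraries against 3, an exact permutation test of a single gene cannot go below p = 0.1, so no such test is given. In bulk RNA, fewer cells of a type and less RNA per cell cannot be told apart.

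The defining surface genes of eosinophils were present in all 6 libraries. Ccr3, the receptor for eotaxins, was at 1103, 856 and 845 TPM in skin and at 770, 762 and 667 TPM in colon. Siglecf, the lectin used to sort mouse eosinophils, was at 251, 219 and 161 TPM in skin and at 245, 296 and 347 TPM in colon. Neither was called (limma adjusted p = 0.152 and 0.0811). Il5ra, the interleukin 5 receptor chain, was at 81.6 to 98.9 TPM in skin and at 57.9 to 74.0 TPM in colon and was not called either (limma adjusted p = 0.145). Other defining genes did differ. Adgre1 was called higher in skin (log2 difference 0.45), but not with only the skin and colon libraries in the fit (limma adjusted p = 0.18). Its call was also lost with median-ratio scaling (0.102) and without skin replicate 1 (0.198), skin replicate 2 (0.142), colon replicate 1 (0.117) or colon replicate 2 (0.145). Alox15 was called lower (log2 difference -2.50, limma adjusted p = 9.24e-11). Epx, the eosinophil peroxidase gene transcribed mainly in precursors, was at 0.48 to 1.70 TPM in skin and was listed at 0 in every colon library.

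Libraries of a tissue resembled each other more than those of the other tissue. Across genes, which are not independent replicates, Pearson's r of log2(TPM + 1) was 0.920 to 0.949 among skin libraries, 0.945 to 0.948 among colon libraries and 0.876 to 0.894 between tissues. Summed TPM ranged from 796048 to 890768, genes with at least 1 TPM from 8659 to 8873, and the share of ribosomal protein genes from 8.91% to 11.9%. Skin replicate 4 had the lowest sum and the highest ribosomal share. The read depth is unknown because TPM keeps none.

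Summed markers of several other cell types differed between the tissues, while those of neutrophils overlapped. For keratinocytes, 4 of 22 listed markers were measured and 3 passed the filter for testing. The summed level of the 4 was 42.5 to 157 TPM in skin and 14.4 to 25.9 TPM in colon. For melanocytes and skeletal muscle, 2 of 12 were measured, with sums of 22 to 316 TPM in skin and 2.94 to 10.6 TPM in colon. For colon epithelium, 7 of 26 were measured, with sums of 8.44 to 10.6 TPM in skin and 80.3 to 153 TPM in colon. Within that list Car1 and Krt19 were listed at 0 in all skin libraries. Macrophage and monocyte markers, 12 of 24 measured, summed to 1285 to 2110 TPM in skin and to 1009 to 1090 TPM in colon, a sum that includes the eosinophil genes Adgre1 and Csf1r. Neutrophil markers, 22 of 27 measured, summed to 5266 to 13572 TPM in skin and to 12446 to 14806 TPM in colon.

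**Figure D1:**
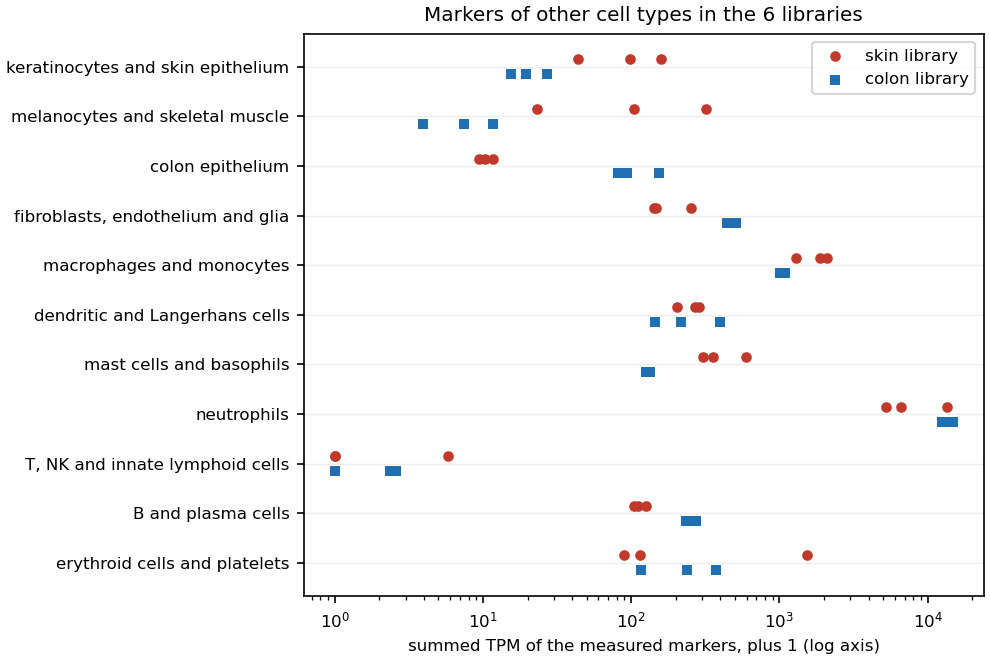
Summed TPM of the measured markers of 11 other cell types (horizontal log axis, 1 added) in each skin library (circles) and colon library (squares). Keratinocyte, muscle, macrophage and mast cell sums lay higher in every skin library than in any colon library, and colon epithelium, stromal and B cell sums lay lower. Hdc made up most of each mast cell sum and Xbp1 most of each B cell sum, so these sums do not measure those cells. Of the 7 measured stromal markers only Pecam1, also a leukocyte gene, and Gsn were called, so the stromal sum need not measure stromal cells.

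Of 9806 genes tested, 1788 (18.2%) were called between skin and colon. Of these, 873 (8.90% of those tested) were higher in skin and 915 (9.33%) were lower. Each count of called list members below is to be read beside these shares. A difference of at least 2 on the log2 scale was reached by 141 of the higher and 215 of the lower genes, and one of at least 3 by 33 and 57. In 1691 of the called genes all 3 skin libraries lay on the same side of all 3 colon libraries, against 32.0% of all genes tested, and in 97 the tissues overlapped. The median difference of all genes tested was 0.04. With only the 6 skin and colon libraries in the fit, 1031 genes were called, 495 higher and 536 lower in skin. The filter on low values was passed through skin alone by 18 genes and through colon alone by 12. Such genes had to differ, and 12 and 7 of them were called.

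**Figure D2:**
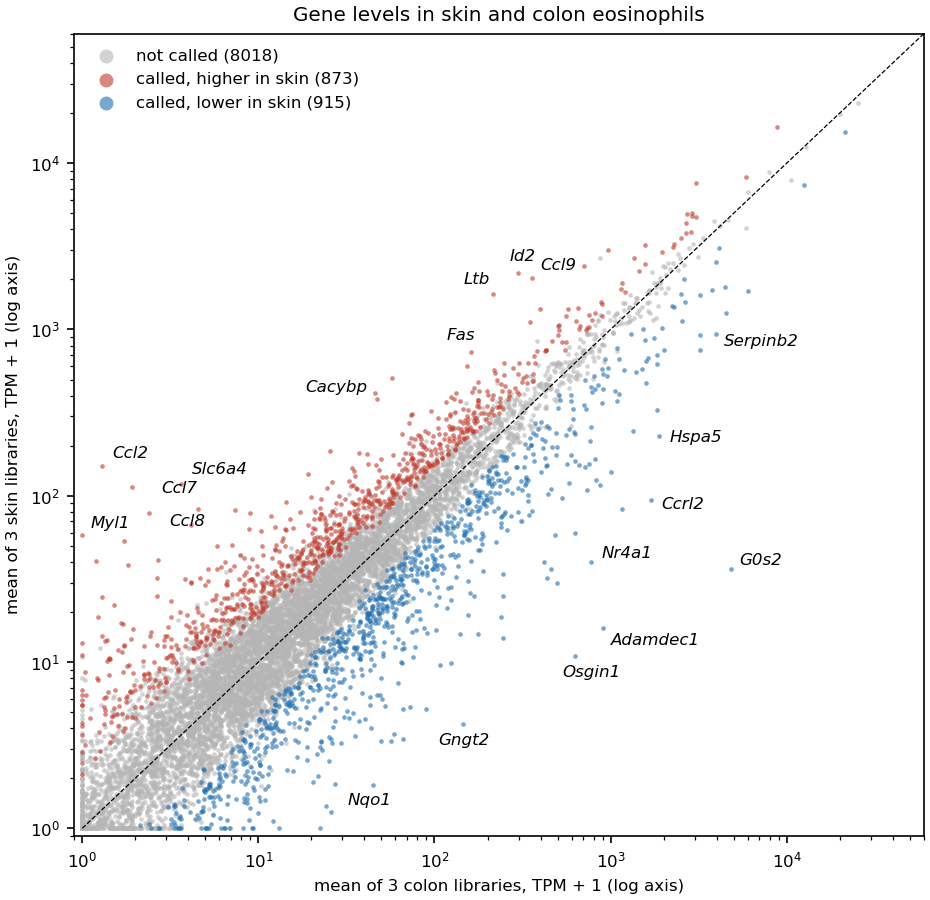
Mean TPM + 1 of each of 9806 genes in 3 colon libraries (horizontal, log axis) and 3 skin libraries (vertical, log axis). Red points were called higher in skin (873), blue points lower (915), and the dashed line marks equal means; Ccl2, Ccl7 and Ccl8 lie far above the line and G0s2, Osgin1 and Adamdec1 far below it.

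The largest differences towards skin were in 3 monocyte-attracting chemokines that lie side by side on chromosome 11. Ccl2 (positions 82035571 to 82037453 of build mm10, plus strand, GENCODE M21) was at 137, 231 and 82.4 TPM in skin and at 0, 0.89 and 0 TPM in colon. Ccl7 (82045712 to 82047525) was at 128, 90.4 and 116 TPM in skin and at 0, 2.75 and 0 TPM in colon. Ccl8 (82115185 to 82116799) was at 102, 88.2 and 42.1 TPM in skin and at 0, 0 and 4.14 TPM in colon. Every skin library lay far above every colon library for all 3 genes. The log2 differences were 6.81 (SE 0.57, limma adjusted p = 3.9e-09) for Ccl2, 6.16 (SE 0.65, adjusted p = 1.48e-07) for Ccl7 and 5.41 for Ccl8. Ccl8 passed the filter on low values through skin alone and so had to differ, and no p is given for it. Skin also stood above the other sites of the same table: in lung all 3 genes were listed at 0 in every library, and in small intestine Ccl2 averaged 6.00 ± 5.6 TPM and Ccl7 4.92 ± 7.32 TPM (SD, n = 4), while Ccl8 was listed at 0.

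Macrophages of connective tissue are also known producers of these chemokines, and several of their markers were higher in skin. Cd209f, a lectin of tissue macrophages, was at 16.3, 10.6 and 3.37 TPM in skin and was listed at 0 in every colon library. Folr2, a folate receptor of resident macrophages, was at 8.88, 24.4 and 6.76 TPM in skin and at 0, 0 and 0.86 TPM in colon. Both passed the filter through skin alone, so their values are a description. Of 12 tested macrophage and monocyte markers, Cd209f among them, 5 were higher and 0 lower in skin, against 8.90% and 9.33% of all genes tested. The higher ones include genes that are not particular to macrophages: Adgre1, which eosinophils express, Pf4, also a platelet gene, and Ly6c2, also of other leukocytes. The complement gene C1qb was at 40.8, 48.8 and 7.53 TPM in skin and at 15.5, 12.8 and 5.85 TPM in colon and was not called (limma adjusted p = 0.22). Lyz2, the lysozyme of macrophages and neutrophils, was at 105, 106 and 31.8 TPM in skin against 17.5 to 22.7 TPM in colon and was not called (adjusted p = 0.182). Within skin, C1qb, Lyz2, Ccl2 and Ccl8 were lowest in replicate 4, and Ccl7 was lowest in replicate 2. In small intestine C1qb averaged 26.7 ± 18.5 TPM and Lyz2 243 ± 59.8 TPM (SD, n = 4), beside the low means of Ccl2 and Ccl7 given above and Ccl8 listed at 0. Their part in the chemokine difference was not tested.

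Among all 17 tested CC and CXC chemokine ligands, 6 were higher, Ccl8 among them, and 4 lower in skin. Ccl9, a chemokine that myeloid cells make in quantity, was at 2301, 2488 and 1298 TPM in skin and at 294, 242 and 540 TPM in colon. The tissues did not overlap, and the log2 difference was 2.53 (SE 0.36, limma adjusted p = 1.49e-05). Pf4, a chemokine of platelets and macrophages that both marker lists hold, was at 119, 66.2 and 46.9 TPM in skin and at 6.27 to 9 TPM in colon (adjusted p = 0.00294). Ccl5, which draws T cells, was also called (adjusted p = 0.00997), but not without colon replicate 1 (0.0778), colon replicate 2 (0.0775) or skin replicate 4 (0.0689), nor with only 2 tissues in the fit (0.153).

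Of the 4 chemokines that were lower in skin, Cxcl2 and Cxcl3 are known to draw neutrophils. Cxcl2 was at 1566, 1780 and 1727 TPM in skin and at 5089, 5637 and 7323 TPM in colon (log2 difference -1.81, SE 0.36, limma adjusted p = 0.000759). Cxcl3 was at 119 to 184 TPM in skin and at 610 to 741 TPM in colon (adjusted p = 0.000122). Ccl4 and Ccl6 completed the 4, with log2 differences of -2.27 (adjusted p = 0.0233) and -0.50 (adjusted p = 0.0217). Without colon replicate 4 or without skin replicate 4 their calls were lost, and the count of 4 went to 2 (adjusted p 0.101 and 0.088 for Ccl4, 0.0628 and 0.135 for Ccl6).

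Other genes with the largest differences towards skin included the serotonin transporter, an adhesion protein and a metallothionein. Slc6a4, the transporter that takes up serotonin, was at 114, 141 and 94.0 TPM in skin and at 0.83, 4.76 and 2.37 TPM in colon. It differed by 5.14 (SE 0.49, limma adjusted p = 3.3e-08) and averaged 0.11 ± 0.20 TPM in lung (SD, n = 3). Parvb, which links integrins to actin, was at 111, 54.0 and 76.5 TPM in skin and at 3.09 to 10.2 TPM in colon (adjusted p = 8.77e-05). Mt2, a metal-binding protein that glucocorticoids and metals induce, was at 27.1, 58.2 and 26.9 TPM in skin and at 2.42, 0 and 0 TPM in colon (adjusted p = 3.5e-06). Ly6c2, a surface protein of monocytes and other leukocytes, was at 37.4, 10.7 and 110 TPM in skin and at 2.16, 0 and 0 TPM in colon (adjusted p = 1.56e-06). S1pr1, the receptor that guides lymphocyte exit from tissue along sphingosine 1-phosphate, was at 14.9, 29.7 and 8.43 TPM in skin and at most 0.49 TPM in colon (adjusted p = 2.42e-06).

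Skeletal muscle genes stood among the leading genes as well. Myl1, a muscle myosin light chain, was at 120, 43.7 and 8.59 TPM in skin and was listed at 0 in every colon library. It passed the filter through skin alone and so had to differ. Acta1, muscle actin, was at 200, 34.4 and 11.2 TPM in skin and at 0, 0 and 10.6 TPM in colon. Acta1, the light chain Mylpf and the carbonic anhydrase Car3 were called but not with only 2 tissues in the fit (limma adjusted p = 0.0853, 0.0605 and 0.0621). Within skin all 4 were highest in replicate 1 and lowest in replicate 4. Of the 3 tested keratinocyte markers, Perp kept its call under each alternative without a replicate block, at 46.1, 68.0 and 33.3 TPM in skin and 8.58 to 20.7 TPM in colon (adjusted p = 0.00164). Their part in other results was not tested.

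**Figure D3:**
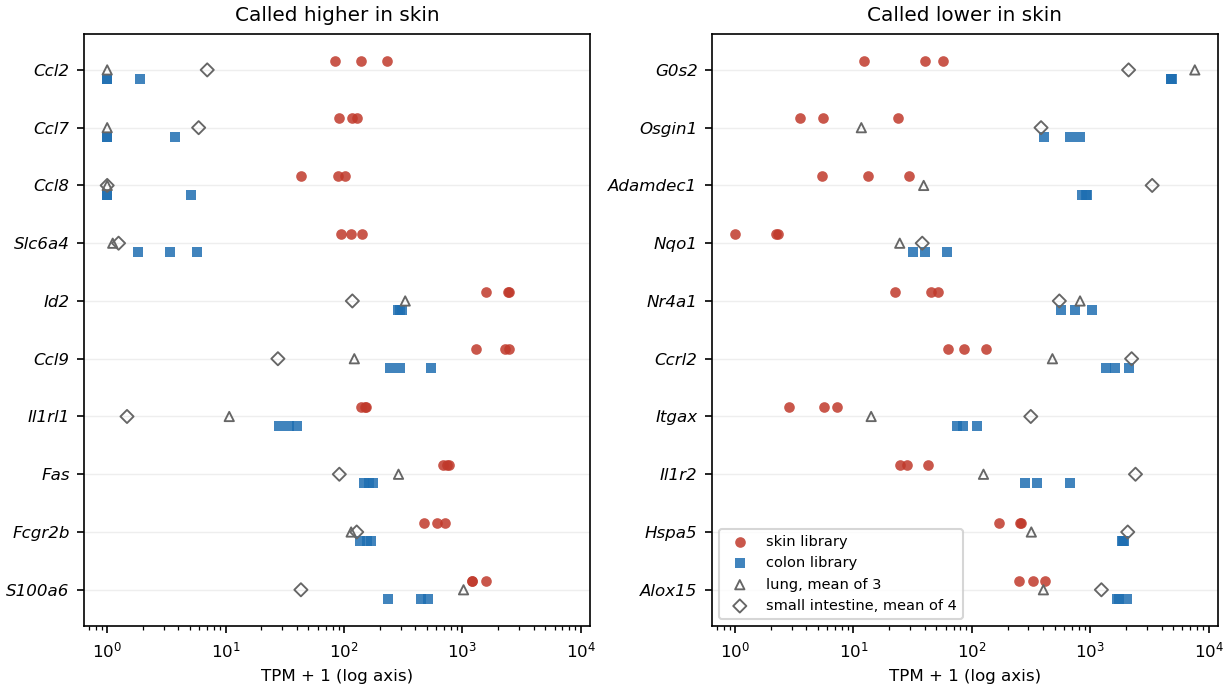
TPM + 1 (log axis) of 10 genes called higher and 10 called lower in skin, with 1 circle for each skin library and 1 square for each colon library. Open triangles give the mean of 3 lung libraries and open diamonds that of 4 small intestine libraries. In each of the 20 genes the skin and colon libraries do not overlap, against 32.0% of all genes tested. The genes were picked from the called ones, and for the largest differences no overlap was a condition, so this is no added result.

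The largest difference of all called genes was in G0s2, an inhibitor of the triglyceride lipase that is encoded by Pnpla2. G0s2 (chromosome 1, positions 193272161 to 193273217, minus strand) was at 39.0, 11.2 and 56.0 TPM in skin and at 4886, 4823 and 4801 TPM in colon. The colon libraries were nearly equal, and skin lay far below them by 7.32 on the log2 scale (log2 difference -7.32, SE 0.47, limma adjusted p = 3.9e-11). Hilpda, a second inhibitor of that lipase and a lipid droplet protein, was at 17.7, 43.4 and 25.9 TPM in skin and at 387, 526 and 571 TPM in colon (adjusted p = 4.94e-07). Pnpla2 itself was at 31.9, 14.6 and 13.1 TPM in skin and at 64.3, 47.0 and 67.3 TPM in colon (adjusted p = 0.000168). Of 26 tested genes of lipid uptake and storage, 7 were lower and 4 higher in skin, and the higher count was 2 without colon replicate 4. The median of the list was -0.18.

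The contrast in G0s2 was not one of intestine against other sites. In lung G0s2 averaged 7632 ± 835 TPM (SD, n = 3), in small intestine 2105 ± 663 TPM (n = 4) and in blood 529 ± 219 TPM (n = 4), all above the skin mean of 35.4 ± 22.7 TPM (n = 3). Hilpda likewise averaged 379 ± 45.1 TPM in lung and 681 ± 192 TPM in small intestine.

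Genes of oxidative defence followed in size. Osgin1, a target of the stress factor NRF2, was at 2.52, 4.50 and 22.7 TPM in skin and at 811, 669 and 406 TPM in colon (log2 difference -6.29, SE 0.43, limma adjusted p = 9.64e-11). Nqo1, a quinone reductase that NRF2 and the aryl hydrocarbon receptor both induce, was at 0, 1.29 and 1.21 TPM in skin and at 30.8, 61.1 and 38.9 TPM in colon (adjusted p = 8.26e-09). Slc7a11, the cystine importer, was at 68.5 to 141 TPM in skin and at 328 to 346 TPM in colon (adjusted p = 0.000147). Slc40a1, the iron exporter ferroportin, was at 8.88 to 30.4 TPM in skin and at 42.7 to 105 TPM in colon (adjusted p = 0.000426). Of 34 tested genes of iron handling and oxidative stress, 12 were lower and 3 higher in skin, with a median of -0.18. Bach1, a repressor of many of these genes, was among the higher ones, at 24.6, 26.4 and 40.2 TPM in skin and at 4.95 to 9.08 TPM in colon (adjusted p = 0.000189).

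Several genes used as markers of activated or long-resident intestinal eosinophils were lower in skin. Adamdec1, a secreted protease of the gut, was at 4.45, 12.3 and 28.3 TPM in skin and at 939, 927 and 846 TPM in colon (log2 difference -6.14, SE 0.53, limma adjusted p = 6.22e-09). Itgax, the integrin chain CD11c, was at 4.68, 1.84 and 6.21 TPM in skin and at 109, 83.7 and 74.5 TPM in colon (adjusted p = 7.85e-08). Hcar2, the receptor for niacin and butyrate, was at 4.90, 16.4 and 4.68 TPM in skin and at 111, 128 and 81.8 TPM in colon (adjusted p = 4.57e-06). Tgm2, a protein cross-linking transglutaminase, was at 1119, 1120 and 520 TPM in skin and at 3716, 2867 and 3062 TPM in colon (adjusted p = 1.56e-05). Cd274 and Cd80, which encode the checkpoint ligand PD-L1 and a costimulator, were at 16.2 to 20.5 and 47.6 to 55.7 TPM in skin and at 56.3 to 59.7 and 142 to 182 TPM in colon (adjusted p = 0.000346 and 0.0025). Of the 22 tested markers 10 were lower in skin, 1 was higher, and the median was -0.85.

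The colon means of the markers named here lay between those of skin and small intestine. Adamdec1 averaged 3330 ± 344 TPM, Itgax 313 ± 21.2 TPM and Hcar2 1055 ± 272 TPM in small intestine (SD, n = 4), all above colon. Ahr averaged 205 ± 16.4 TPM there and 158 ± 15.6 TPM in colon (n = 3). Colon epithelial markers moved with this group: Krt18, a keratin of simple epithelia, was at 3.01, 4.25 and 4.65 TPM in skin and at 22.3, 36.5 and 42.2 TPM in colon (limma adjusted p = 4.41e-07). All 7 tested colon epithelium markers were called lower in skin, against 9.33% of all genes tested. The count was 5 or 6 when any 1 library was left out. It was 6 with median-ratio scaling and 5 with only 2 tissues in the fit. Olfm4 lost its call whichever library was left out. The part of these markers in this difference was not tested.

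The aryl hydrocarbon receptor binds plant, microbial and environmental compounds and then switches on genes from sites that hold the letters GCGTG. Of 10 tested genes of this pathway 6 were lower and 1 higher in skin, with a median of -1.25. The 300 bases around the start of Ahrr, the receptor's own repressor and the list's clearest feedback target, hold that motif 3 times (RefSeq, GRCm38.p6, chr13:74292282-74292581, minus strand, shown from 5′ to 3′ with the motif in capitals):

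Ahrr: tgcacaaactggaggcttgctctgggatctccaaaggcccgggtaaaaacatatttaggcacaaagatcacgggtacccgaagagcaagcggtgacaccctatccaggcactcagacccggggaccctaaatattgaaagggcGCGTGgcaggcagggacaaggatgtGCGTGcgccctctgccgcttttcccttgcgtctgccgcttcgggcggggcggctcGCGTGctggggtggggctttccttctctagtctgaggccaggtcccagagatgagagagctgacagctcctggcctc

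On either strand GCGTG was found in 5 of the 7 list members with a promoter in the table (Ahrr, Arnt, Cyp1b1, Ptges3 and Tiparp) and in 10639 of 32851 promoters of the same length (32.4%), so a match is a description only.

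The receptor gene and its feedback targets were lower in skin. Ahr was at 18.4, 30.4 and 26.1 TPM in skin and at 175, 147 and 150 TPM in colon (log2 difference -2.63, SE 0.19, limma adjusted p = 2.13e-10). Ahrr, whose promoter is shown above, was at 0, 0 and 0.35 TPM in skin and at 5.65, 7.77 and 3.58 TPM in colon (adjusted p = 7.89e-06). Tiparp, an enzyme that modifies and dampens the receptor, was at 32.2, 39.0 and 98.2 TPM in skin and at 218, 196 and 148 TPM in colon (adjusted p = 0.000377). For each of the 3 genes the highest skin library lay below the lowest colon library. Nqo1, described above, is also on this list. Ptges3, a cochaperone of the receptor, was the member that was higher. In lung Ahr averaged 39.4 ± 3.50 TPM (SD, n = 3), above the skin mean of 25.0 ± 6.09 TPM and below that of colon.

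When unfolded proteins build up in the endoplasmic reticulum, 3 sensors switch on chaperone genes and a transcription programme around ATF4 and CHOP. A known response element of such chaperone genes reads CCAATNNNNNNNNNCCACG. It was found on either strand in 39 of 32851 RefSeq promoters (0.119%), and in 8 of 25 members of the unfolded protein response list that have a promoter in the table: Calr, Canx, Creld2, Dnajc3, Hsp90b1, Hspa5, Pdia6 and Syvn1. Of these, Hspa5, Hsp90b1, Calr and Pdia6 were called lower in skin. Ddit3, Trib3 and Dnajb9, which are not among these 8, were also called lower, so a match is a description only. The promoters of Hspa5, Hsp90b1 and Calr are shown as examples (GRCm38.p6, 300 bases, 5′ to 3′, the element in capitals on either strand). Hspa5 is at chr2:34771840-34772139 on the plus strand, Hsp90b1 at chr10:86705395-86705694 on the minus strand and Calr at chr8:84846882-84847181 on the minus strand.

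Hspa5: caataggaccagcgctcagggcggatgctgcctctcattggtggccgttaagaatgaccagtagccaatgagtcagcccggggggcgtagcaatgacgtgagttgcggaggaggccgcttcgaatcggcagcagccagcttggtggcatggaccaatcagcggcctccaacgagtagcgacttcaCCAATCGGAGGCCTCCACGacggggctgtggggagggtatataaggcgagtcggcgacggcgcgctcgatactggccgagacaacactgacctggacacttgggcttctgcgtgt
Hsp90b1: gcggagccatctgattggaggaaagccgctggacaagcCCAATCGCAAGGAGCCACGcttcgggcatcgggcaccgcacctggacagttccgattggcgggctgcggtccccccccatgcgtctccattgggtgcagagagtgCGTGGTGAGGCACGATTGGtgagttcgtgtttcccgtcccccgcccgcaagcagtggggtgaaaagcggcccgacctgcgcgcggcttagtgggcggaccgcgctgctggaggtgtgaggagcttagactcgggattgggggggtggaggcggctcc
Calr: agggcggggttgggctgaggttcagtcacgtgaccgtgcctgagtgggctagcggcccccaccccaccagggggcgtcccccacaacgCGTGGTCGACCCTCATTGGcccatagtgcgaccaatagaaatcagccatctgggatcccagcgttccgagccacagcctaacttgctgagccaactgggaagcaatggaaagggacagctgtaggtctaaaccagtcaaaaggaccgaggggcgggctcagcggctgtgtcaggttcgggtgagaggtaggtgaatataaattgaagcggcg

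Of the 28 tested members 12 were lower in skin and 0 higher, with a median of -0.66. Hspa5, the main chaperone of the endoplasmic reticulum, was at 253, 260 and 170 TPM in skin and at 1929, 1862 and 1883 TPM in colon. The difference was -3.08 on the log2 scale (SE 0.18, limma adjusted p = 1.45e-11), and the colon libraries were within a few percent of each other. Hsp90b1, which folds integrins and receptors, was at 260, 281 and 213 TPM in skin and at 585, 623 and 526 TPM in colon (adjusted p = 3.53e-05). Calr, a lectin chaperone, was at 44.5 to 68.7 TPM in skin and at 133 to 157 TPM in colon (adjusted p = 0.00107). Manf, a secreted stress protein, was at 49.1 to 57.4 TPM in skin and at 117 to 179 TPM in colon (adjusted p = 0.00576).

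The ATF4 branch was lower as well. Ddit3, which encodes the transcription factor CHOP, was at 116, 153 and 52.2 TPM in skin and at 701, 970 and 526 TPM in colon (log2 difference -2.85, SE 0.35, limma adjusted p = 1.43e-06). Atf4 was at 460, 476 and 347 TPM in skin and at 1092, 1224 and 879 TPM in colon (adjusted p = 5.5e-05). Trib3, a pseudokinase induced by both, was at 0, 0.70 and 0 TPM in skin and at 13.5, 5.08 and 8.42 TPM in colon (adjusted p = 0.000279). No member overlapped between tissues among these. Xbp1, a transcription factor of the same response that eosinophil precursors need, was at 52.6 to 76.2 TPM in skin and at 150 to 174 TPM in colon (adjusted p = 0.00115).

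Cells make sterols through enzymes that the factor SREBP2 switches on when cholesterol is short. Of 30 tested genes of sterol synthesis and uptake 11 were lower and 2 higher in skin, with a median of -1.06. Insig1, a sensor and feedback target of the pathway, was at 1.91, 3.89 and 0.96 TPM in skin and at 31.0, 30.2 and 24.6 TPM in colon (log2 difference -3.28, SE 0.46, limma adjusted p = 1.18e-05). The enzyme genes Sc5d, Cyp51, Idi1 and Hmgcs1 were at 9.49 to 16.8, 1.68 to 7.82, 3.11 to 3.64 and 6.47 to 12.2 TPM in skin. In colon they were at 72.6 to 180, 35.6 to 52.7, 18.4 to 35.4 and 46.7 to 53.8 TPM, with no overlap. Their adjusted p-values were 1.35e-07, 1.8e-05, 0.000501 and 0.000129.

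A member with another role was among those higher in skin. Abca1, which exports cholesterol and is not one of the synthesis enzymes, was at 27.5, 38.7 and 25.9 TPM in skin and at 2.88, 1.67 and 3.97 TPM in colon (log2 difference 3.07, SE 0.38, limma adjusted p = 1.95e-06).

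Immediate early genes encode transcription factors and phosphatases that cells switch on within minutes of a stimulus, and enzymatic dissociation of tissue is a known stimulus. Of 38 tested genes of the immediate early and dissociation response 26 were lower and 2 higher in skin, with a median of -1.45. Nr4a1, an orphan nuclear receptor, was at 21.5, 50.5 and 44.4 TPM in skin and at 562, 737 and 1029 TPM in colon (log2 difference -4.33, SE 0.42, limma adjusted p = 4.15e-08). Jun was at 34.9, 38.2 and 33.2 TPM in skin and at 455, 545 and 381 TPM in colon (adjusted p = 1.39e-06). Junb was at 1081, 1170 and 1520 TPM in skin and at 3875, 4375 and 5386 TPM in colon (adjusted p = 4.5e-05). The 3 genes did not overlap between tissues.

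Further members followed the same direction. Fosb was at 6.71, 7.71 and 40.5 TPM in skin and at 113, 114 and 232 TPM in colon (limma adjusted p = 7.47e-05), with skin replicate 4 the highest of its group. Myc was at 2.37, 0.28 and 0.52 TPM in skin and at 26, 24.3 and 12.4 TPM in colon (adjusted p = 2.56e-06). Atf3 was at 31.3, 47.3 and 20.4 TPM in skin and at 214, 313 and 206 TPM in colon (adjusted p = 0.000102). Nr4a1 was also abundant in lung, at 818 ± 55.5 TPM (SD, n = 3), and averaged 547 ± 224 TPM in small intestine and 9.98 ± 5.73 TPM in blood (n = 4 each). The dissociation of each tissue is not described in the labels, and dissociation and tissue cannot be told apart here.

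The exceptions on that list were cytosolic chaperones. Hspa8 was at 9421, 9155 and 4261 TPM in skin and at 3344, 3833 and 2014 TPM in colon (limma adjusted p = 0.00372), a call lost with only 2 tissues in the fit (0.0794). Hsp90aa1 was at 1174 to 1416 TPM in skin and at 349 to 758 TPM in colon (adjusted p = 0.026). Its call was lost without colon replicate 4 (0.148), skin replicate 1 (0.0668) or skin replicate 2 (0.0746), and with median-ratio scaling (0.0511). Hspa1a, a heat shock gene, was at 236, 403 and 71.2 TPM in skin and at 141, 248 and 50.7 TPM in colon, and was not called (adjusted p = 0.567).

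**Figure D4:**
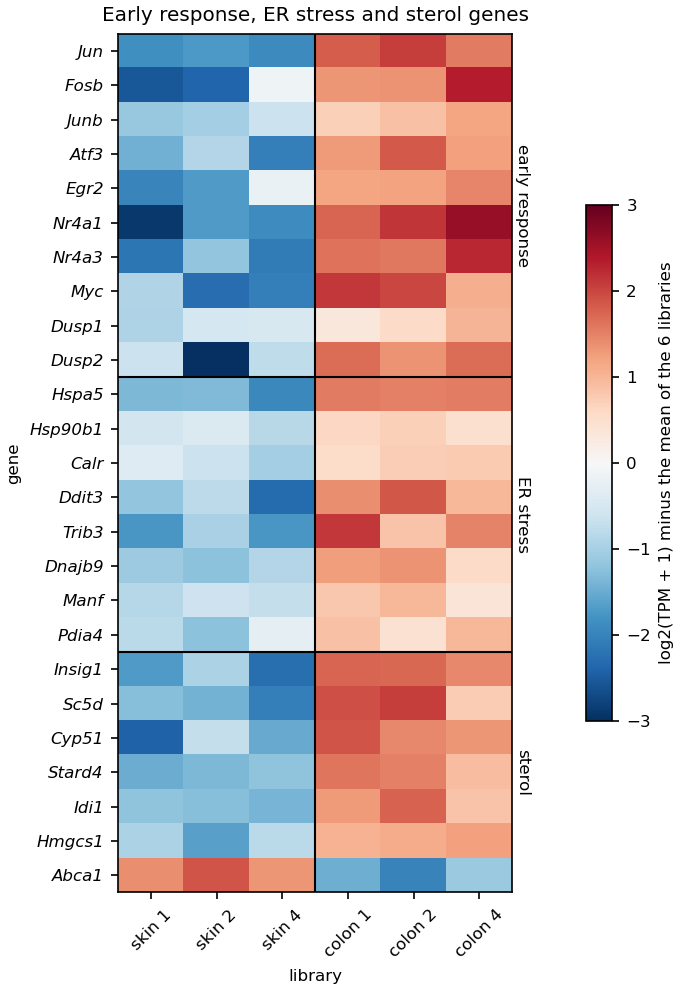
Level of 25 genes in each of the 6 libraries as log2(TPM + 1) minus the mean of the 6, in blue below and in red above that mean. The 10 early response genes, the 8 genes of endoplasmic reticulum (ER) stress and 6 of the 7 sterol genes lay lower in every skin library than in any colon library, while Abca1 lay higher. The genes were picked with their values known, so this even separation follows in part from the choice. In the full lists 26 of 38, 12 of 28 and 11 of 30 tested members were called lower, and 2, 0 and 2 higher.

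Receptors and ligands of the interleukin 1 family differed in both directions. Il1rl1, the interleukin 33 receptor ST2, was at 149, 153 and 138 TPM in skin and at 27.0, 33.4 and 39.1 TPM in colon (log2 difference 2.12, SE 0.34, limma adjusted p = 5.1e-05). It averaged 9.73 ± 4.75 TPM in lung (SD, n = 3) and 0.47 ± 0.54 TPM in small intestine (n = 4). Il18rap, a chain of the interleukin 18 receptor, was at 17.7, 30.5 and 21.8 TPM in skin and at 2.63 to 7.35 TPM in colon (adjusted p = 0.000182). Il1r2, a decoy that binds interleukin 1 without signalling, was at 41.7, 23.6 and 27.4 TPM in skin and at 277, 355 and 673 TPM in colon (adjusted p = 1.11e-07). Il1a, the ligand, was at 74.7, 77.0 and 24.1 TPM in skin and at 563, 713 and 593 TPM in colon (adjusted p = 3.3e-08). Il1b was at 608 to 1629 TPM in skin and at 1587 to 2038 TPM in colon and was not called (adjusted p = 0.243). Of 19 tested members 3 were higher and 5 lower, and the lower count was 3 without colon replicate 1 or without skin replicate 4.

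Cytokine and growth factor genes were called in both directions. Il13, a type 2 cytokine, was at 7.54, 2.66 and 3.30 TPM in skin and was listed at 0 in every colon library (limma adjusted p = 8.89e-05). Il6 was at 97.0, 80.2 and 60.6 TPM in skin and at 14.1, 14.1 and 20.2 TPM in colon (adjusted p = 0.0158). The call on Il6 was lost with a pseudocount of 0.1 (0.161) and without colon replicate 1 (0.0526), colon replicate 2 (0.0519) or skin replicate 1 (0.058). Osm, a cytokine that acts on stromal and epithelial cells, was at 68.5, 79.8 and 126 TPM in skin and at 222, 316 and 474 TPM in colon (adjusted p = 0.0049). Hbegf, a growth factor for epithelium, was at 2.52 to 5.27 TPM in skin and at 35.5 to 42.5 TPM in colon (adjusted p = 0.000124). Of 23 tested cytokines and growth factors 4 were higher and 3 lower, against 8.90% and 9.33% of all genes tested, and the higher count was 2 without colon replicate 2.

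NF-kappaB is the factor that toll-like and interleukin 1 receptors engage, and it induces its own inhibitors. Nfkb1, which encodes the subunit p50, was at 451, 424 and 361 TPM in skin and at 136, 117 and 140 TPM in colon (log2 difference 1.65, SE 0.18, limma adjusted p = 2.07e-07). Nfkbiz, an inducible regulator of secondary response genes, was at 133, 160 and 75.1 TPM in skin and at 784, 818 and 866 TPM in colon (adjusted p = 3.45e-06). Tnfaip2 and Icam1, both induced by the factor, were at 2.58 to 6.64 and 59.5 to 188 TPM in skin and at 32.1 to 68.6 and 381 to 447 TPM in colon (adjusted p = 1.15e-06 and 0.000201). Of 31 tested subunits and feedback genes 9 were lower and 3 higher in skin, with a median of -0.42. The higher count was 5 without colon replicate 4 and with a pseudocount of 5.

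Enzymes that turn arachidonic acid into lipid mediators were called mainly in 1 direction: of 18 tested genes of eicosanoid synthesis 8 were lower and 1 higher, with a median of -0.67. Alox15, the lipoxygenase for which eosinophils are known, was at 410, 324 and 250 TPM in skin and at 1694, 1750 and 2025 TPM in colon (log2 difference -2.50, SE 0.17, limma adjusted p = 9.24e-11). Alox5, the entry enzyme of leukotriene synthesis, was at 160, 107 and 95.4 TPM in skin and at 305, 268 and 355 TPM in colon (adjusted p = 1.56e-06). Tbxas1, thromboxane synthase, was at 65.5 to 83.0 TPM in skin and at 235 to 257 TPM in colon (adjusted p = 2.71e-06). Ptgs1, a cyclooxygenase, was at 4.06, 3.63 and 0 TPM in skin and at 15.6, 17.4 and 39.4 TPM in colon (adjusted p = 8.97e-05). None of the 4 overlapped between tissues. Ltb4r1, the receptor for leukotriene B4, was also lower, at 25.8 to 36.5 TPM in skin and 116 to 141 TPM in colon (adjusted p = 1.35e-07).

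Receptors for small metabolites and neuromediators had more lower than higher calls, with 11 of 36 tested genes lower and 3 higher in skin and a median of -0.20. Gpr65, a sensor of extracellular acid, was at 167, 186 and 128 TPM in skin and at 617, 624 and 630 TPM in colon (log2 difference -1.97, SE 0.19, limma adjusted p = 2.48e-08). P2ry2, a receptor for extracellular nucleotides, was at 26.7 to 54.8 TPM in skin and at 107 to 158 TPM in colon (adjusted p = 0.000105). The higher count of 3 was 1 without colon replicate 2, colon replicate 4 or skin replicate 1. From the list of chemoattractant receptors, Ccrl2, which binds the chemoattractant chemerin and presents it to other cells, was at 132, 85.1 and 61.7 TPM in skin and at 1363, 1617 and 2124 TPM in colon (adjusted p = 1.21e-10).

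Cytokine and death receptors had more higher than lower calls, with 9 of 39 tested genes higher and 4 lower and a median of 0.30. Fas, a death receptor, was at 762, 738 and 687 TPM in skin and at 161, 145 and 175 TPM in colon (log2 difference 2.18, SE 0.31, limma adjusted p = 1.26e-05). In lung Fas averaged 288 ± 75.4 TPM (SD, n = 3) and in small intestine 90.3 ± 46.7 TPM (n = 4). The higher count was 5 without colon replicate 4 and 4 with only 2 tissues in the fit, and the lower count was 1 or 2 when any library other than skin replicate 4 was left out. Among 37 tested genes of apoptosis and survival 6 were higher and 9 lower. Their Pim kinases split: Pim2 was at 161 to 193 TPM in skin and 33.0 to 41.9 TPM in colon (adjusted p = 0.00393), and Pim3 at 46.5 to 64.7 TPM in skin and 452 to 532 TPM in colon (adjusted p = 2.47e-08).

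Inhibitory receptors of the cell surface were another group with more higher than lower genes, 9 and 4 of 33 tested, although the median was -0.08. Fcgr2b, the inhibitory receptor for IgG, was at 711, 611 and 476 TPM in skin and at 155, 167 and 135 TPM in colon (log2 difference 1.95, SE 0.15, limma adjusted p = 1.18e-09). Ceacam1 was at 273, 178 and 100 TPM in skin and at 24.2, 20.5 and 29.3 TPM in colon (adjusted p = 8.15e-07). Cd200r1, which receives an inhibitory signal from CD200, was at 16.7 to 28.9 TPM in skin and at 0.19 to 4 TPM in colon (adjusted p = 0.000591). Cd300lf, a lipid-binding inhibitory receptor, went the other way, at 337 to 478 TPM in skin and at 825 to 1377 TPM in colon (adjusted p = 2.07e-05).

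Transcription factors and other genes of eosinophil identity were divided, with 8 of 28 tested genes higher and 5 lower in skin and a median of 0.33. Id2, an inhibitor of E proteins, was at 2479, 2443 and 1586 TPM in skin and at 286, 298 and 308 TPM in colon (log2 difference 2.83, SE 0.18, limma adjusted p = 3.9e-11). Its level in lung, 328 ± 33.3 TPM (SD, n = 3), and in blood, 500 ± 20.7 TPM (n = 4), was nearer to colon than to skin. Regulators outside this list differed as well. Smad3, which carries TGF-beta signals, and Batf3 were higher, at 68.8 to 91.0 and 83.1 to 107 TPM in skin and at 15.5 to 27.2 and 7.20 to 29.9 TPM in colon (adjusted p = 5.1e-05 and 0.00158). Hes1, a target of Notch, was at 0, 1.03 and 6.00 TPM in skin and at 53.5, 61.1 and 52.8 TPM in colon (adjusted p = 4.2e-06). Socs2, a feedback inhibitor of STAT5 signalling, was at 7.51, 6.43 and 24.7 TPM in skin and at 208, 219 and 301 TPM in colon (adjusted p = 6.36e-07).

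Granule protein genes differed in few members. Prg2, which encodes major basic protein, was at 231, 246 and 139 TPM in skin and at 50.7, 94.7 and 104 TPM in colon and was not called (limma adjusted p = 0.0544). Of 8 tested members 3 were higher in skin, Prg3, Ear1 and Ear2, and 0 lower. Prg3 was at 31.3 to 46.7 TPM in skin and at 1.56 to 19.6 TPM in colon (adjusted p = 0.00254), a call lost with only 2 tissues in the fit (0.0719). The count of 3 was 1 without skin replicate 1 or colon replicate 4, and with a pseudocount of 5, and 0 with only 2 tissues in the fit. Ear1 and Ear2 belong to a family of near-identical ribonuclease genes among which reads may be split. Hdc, which makes histamine and is on the mast cell list, was at 349, 300 and 518 TPM in skin and at 126, 127 and 118 TPM in colon (adjusted p = 9.9e-05). The mast cell genes Fcer1a, Ms4a2 and Cpa3 were listed at 0 in skin replicates 1 and 2 and in every colon library, and at 10.6, 1.10 and 21 TPM in skin replicate 4.

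Genes of tissue remodelling, whose products act mostly outside the cell, were called in both directions. Of 21 tested members 10 were lower and 4 higher, with a median of -0.53, and the higher count was 2 without skin replicate 2. Serpinb2, an inhibitor of plasminogen activators, was at 1290, 1021 and 514 TPM in skin and at 3673, 3539 and 4661 TPM in colon (limma adjusted p = 1.38e-05). Plaur, the urokinase receptor, was at 83.3 to 106 TPM in skin and at 429 to 710 TPM in colon (adjusted p = 1.19e-06). Spp1, which encodes osteopontin, and the protease Adam9 were higher in skin, at 2.72 to 6.16 and 11.4 to 17.2 TPM; in colon Spp1 was listed at 0 and Adam9 was at 1.57 to 2.40 TPM (adjusted p = 0.00367 and 0.0007). The list of endosome and lysosome genes had 9 lower and 3 higher of 41 tested and a median of -0.01, and the higher count was 1 without skin replicate 2. The lower count was 5 with only 2 tissues in the fit. Acp5, an acid phosphatase of the lysosome, was at 1.92 to 5.02 TPM in skin and at 29.9 to 54.1 TPM in colon (adjusted p = 3.68e-07). Lgmn, a lysosomal protease, was at 16.9 to 33.5 TPM in skin and at 83.8 to 123 TPM in colon (adjusted p = 5.22e-06).

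Adhesion genes were called in both directions, 5 higher and 8 lower of 35 tested. Pecam1, an adhesion protein of endothelium and leukocytes, was at 6.59, 11.3 and 25.8 TPM in skin and at 105, 90.0 and 109 TPM in colon (limma adjusted p = 2.12e-07). Itgal, the integrin chain of LFA-1, was at 42.0 to 72.5 TPM in skin and at 147 to 185 TPM in colon (adjusted p = 1.56e-07). Cd81, a tetraspanin, was at 471, 517 and 262 TPM in skin and at 133, 154 and 197 TPM in colon (adjusted p = 0.000411). Of 7 measured markers of fibroblasts, endothelium and glia, Pecam1 and Gsn were the called ones, and the collagen gene Col1a2 was at 1.06 to 6.68 TPM in skin and 0 to 10.0 TPM in colon.

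Annexin and S100 genes encode calcium-binding proteins of the membrane and cytoskeleton, and all called members were higher in skin: 10 of 20 tested, with a median of 0.57. S100a6 was at 1566, 1195 and 1209 TPM in skin and at 235, 446 and 514 TPM in colon (log2 difference 1.79, SE 0.33, limma adjusted p = 0.000331). In lung S100a6 averaged 1021 ± 43.2 TPM (SD, n = 3) and in small intestine 42.3 ± 24.7 TPM (n = 4). Ahnak, a scaffold protein that binds S100 proteins, was at 80.1 to 97.5 TPM in skin and at 13.9 to 48.7 TPM in colon (adjusted p = 0.00229). The count of 10 was 6 without colon replicate 1, 4 without colon replicate 2, and 5 with median-ratio scaling or with only 2 tissues in the fit.

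Genes of mitochondrial respiration and of protein breakdown had more higher than lower calls. Of 87 tested genes of oxidative phosphorylation 21 were higher and 3 lower, with a median of 0.30. Cox6b1, a subunit of cytochrome oxidase, was at 1006, 830 and 1129 TPM in skin and at 488, 558 and 481 TPM in colon (limma adjusted p = 1.19e-06). Ndufb9, of complex I, was at 357 to 364 TPM in skin and at 153 to 202 TPM in colon (adjusted p = 1.87e-05). The split of 21 and 3 was 13 and 6 with median-ratio scaling. The higher count was 11 without colon replicate 2, 13 without skin replicate 4 and 10 with only 2 tissues in the fit, and the lower count was 5 without skin replicate 1. Of 38 proteasome subunits 8 were higher and 2 lower (median 0.28), with 5 higher without colon replicate 4. Psmb5, a catalytic subunit, was at 218 to 284 TPM in skin and at 107 to 154 TPM in colon (adjusted p = 0.000135). Psmb8 and Psmb9, the interferon-inducible subunits, went the other way, at 112 to 123 and 12.0 to 24.7 TPM in skin and at 193 to 214 and 42.5 to 63.6 TPM in colon (adjusted p = 0.00554 and 0.0042).

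Interferon response genes had 6 higher and 2 lower of 44 tested, against 8.90% and 9.33% of all genes tested, with a median of 0.62. Among the higher ones, Irgm1 and Usp18 (limma adjusted p = 0.0497 and 0.0291) lost their calls under several alternatives. Isg15, a ubiquitin-like protein, was at 33.4, 16.6 and 52.5 TPM in skin and at 193, 168 and 202 TPM in colon (limma adjusted p = 0.000315). Irf1, a transcription factor of the interferon response, was at 25.8 to 33.4 TPM in skin and at 125 to 183 TPM in colon (adjusted p = 9.12e-06). Ifi27l2a was at 399, 117 and 1017 TPM in skin and at 43.4 to 63.6 TPM in colon (adjusted p = 0.000946), a call lost with only 2 tissues in the fit (0.0578). The higher count was 3 without skin replicate 4 or colon replicate 1, and the lower count was 4 without skin replicate 4. H2-D1, a classical MHC class I gene, was at 4066 to 4669 TPM in skin and at 2453 to 2917 TPM in colon (adjusted p = 0.00122). Of 80 ribosomal protein genes 3 were higher and 4 lower, shares below those of all genes tested, with a median of -0.02. The higher count was 1 without colon replicate 1 or 2, and the lower count was 2 without colon replicate 1 or skin replicate 1 and 8 with median-ratio scaling.

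**Figure D5:**
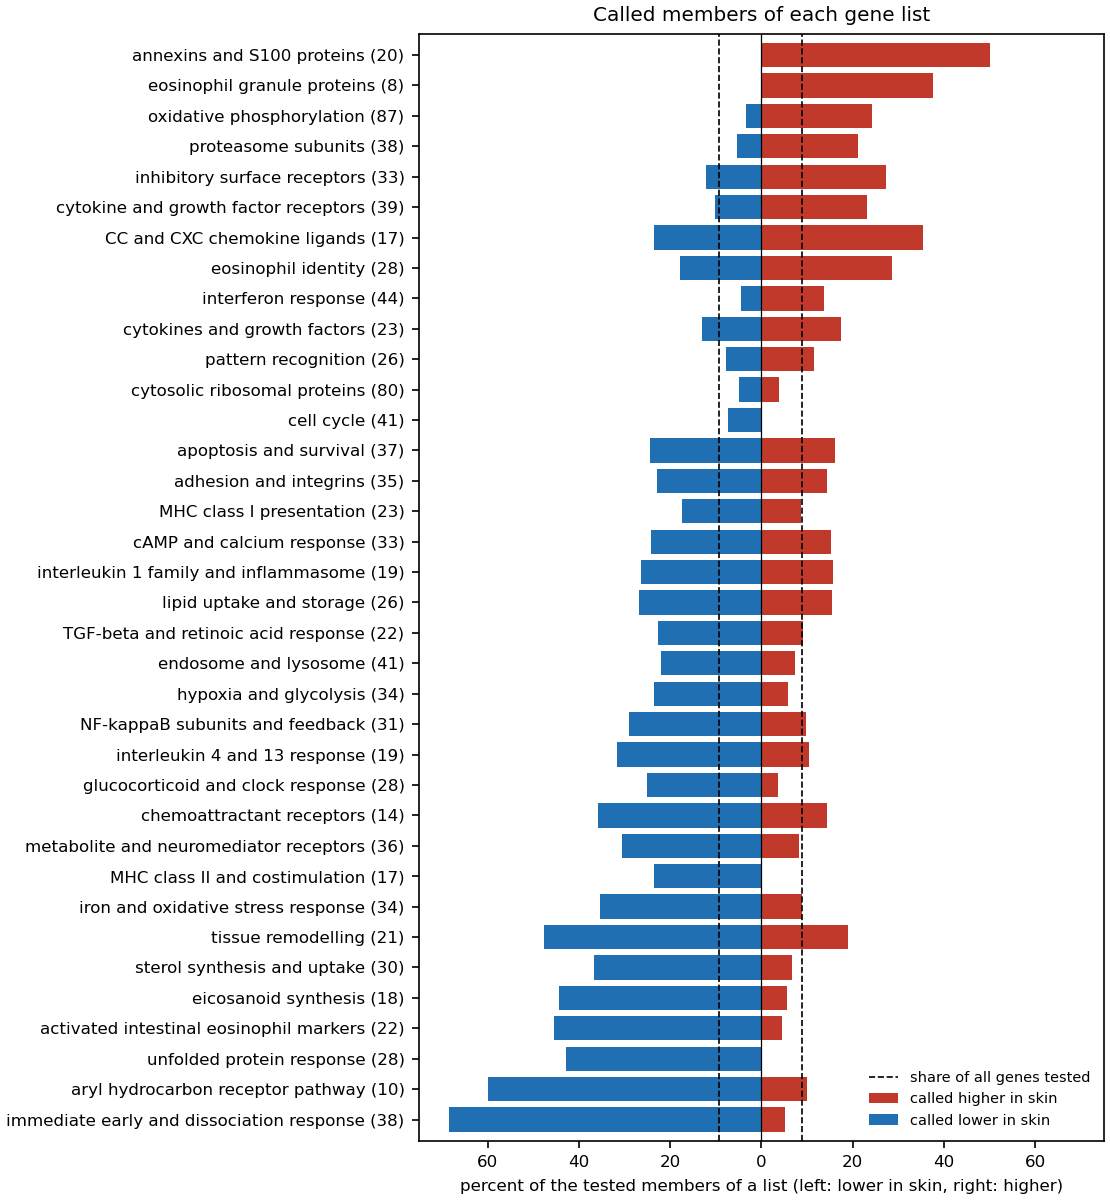
Percent of the tested members of each gene list (number in brackets) that were called higher in skin (red, to the right) or lower in skin (blue, to the left). Dashed lines mark the shares over all genes tested, 8.90% higher and 9.33% lower; of the lists drawn, the immediate early, aryl hydrocarbon receptor and tissue remodelling lists reach furthest to the left, and the annexin and S100 list furthest to the right.

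Lung and small intestine libraries share no sample with skin and colon. The contrast of a gut site with another barrier site could therefore be read a second time in them. Both contrasts came from the same fit and shared each gene's estimate of the spread, so their calls are not independent. A gene with a low spread is more easily called in both, and the part of this in the overlaps was not tested. Between lung and small intestine 4918 genes (50.2%) were called, 1079 higher in lung (11%) and 3839 lower (39.1%). Of the 873 genes higher in skin than in colon, 242 (27.7%) were also higher in lung than in small intestine and 234 (26.8%) were lower; the 242 are 22.4% of the 1079. Of the 915 genes lower in skin, 531 (58%) were also lower in lung and 101 (11%) were higher; the 531 are 13.8% of the 3839. With quantile normalization, which evened the second contrast to 2034 higher and 1874 lower genes, the matching shares were 337 of 843 (40%, against 20.7% of all genes tested) and 340 of 902 (37.7%, against 19.1%).

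Several leading genes had the same direction in both contrasts. Hspa5 averaged 317 ± 37.4 TPM in lung (SD, n = 3) and 2070 ± 282 TPM in small intestine (n = 4; limma adjusted p = 2.88e-12). Osgin1 averaged 10.7 ± 1.72 TPM in lung and 383 ± 103 TPM in small intestine (adjusted p = 3.06e-10), and Il1r2 124 ± 29.7 and 2407 ± 303 TPM (adjusted p = 5.31e-10). Insig1 averaged 4.18 ± 2.48 and 124 ± 33.1 TPM (adjusted p = 3.13e-09), and Alox15 401 ± 31.7 and 1240 ± 88.5 TPM (adjusted p = 7.34e-09). Other genes did not repeat the contrast. G0s2 was higher in lung than in small intestine (adjusted p = 0.000766), Nqo1 averaged 23.6 ± 9.51 and 37.1 ± 4.57 TPM (adjusted p = 0.125) and Nr4a1 was not called either (adjusted p = 0.155). Of the 873 genes higher in skin than in colon, 292 had all 3 skin libraries above all other 21 tissue libraries, and of the 915 lower genes 90 had all skin libraries below those 21. Over all genes tested these counts were 388 and 108. For colon, 68 of the 915 had all colon libraries above the other 21 and 10 of the 873 had all below, against 92 and 15 over all genes tested.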

How the data were processed

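The authors deposited a table of TPM values for the 24 total-eosinophil tissue libraries, with 9844 genes and 1 column per library. The submitters' processing notes name RSEM 1.3.3, STAR 2.7.5c, cutadapt 2.10 and the mouse build mm10. The gene annotation and any filter on genes before deposit are not stated there. TPM keeps no read depth, so the precision behind a value is unknown and the number of libraries limits it. No per-sample column was left out. The series' table of reporter-sorted libraries and its single-cell sample were not used here.

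From the deposited TPM, log2(TPM + 1) was tested with limma 3.58.1 in R 4.3.3 for 9806 genes with at least 1 TPM in at least 3 of the 24 libraries. Tissue was the only term, all 24 libraries shared 1 estimate of the spread (lmFit, eBayes with trend, two-sided), and skin minus colon and lung minus small intestine were the contrasts. Adjusted p-values are limma's with Benjamini-Hochberg adjustment over all genes tested, and genes under 0.05 were called. The procedure was tested on simulated data. Alternatives were other pseudocounts, filters, scalings and variance settings, a replicate block, and leaving out each library.

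Skin and colon libraries of equal number did not deviate together (r = 0.008, 0.024 and 0.014 across genes), so numbers were not treated as pairs. The members and lists were chosen with earlier results of these data known. The rule named the 20 largest called differences each way with at least 10 TPM and no overlap, up to 6 called members of each list, and defining eosinophil markers. Single genes outside it (Cxcl2, Cxcl3, Ccl4, Ccl6, Hmgcs1, Hsp90b1, Atf4, Junb, Atf3, Hspa8, Hsp90aa1, Hspa1a, Il1b, Ptges3, Pdia6, Col1a2, and markers given for a whole list) were chosen after their values were seen. Coordinates come from GENCODE M21, and promoters from RefSeq (250 bases before to 50 after a start).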

Additional observations from a re-analysis of the deposited data

Results flagged for a closer look

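In 26 genes whose values were looked up in the 4 small intestine and 4 blood libraries, a single library stood apart from the other 3 in 2 of 52 groups, where chance gives about 1 in 20. Slc6a4, the serotonin transporter, was at 0.99 TPM in small intestine replicate 4 and was listed at 0 in the other 3. Lyz2, the lysozyme gene, was at 78.26 TPM in blood replicate 2, far above the other 3 blood libraries.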

How the results depend on the processing

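With only the 6 skin and colon libraries in the fit, 1031 genes were called between skin and colon (495 higher, 536 lower in skin) in place of 1788 (873 and 915). The cause was not tested. With a replicate block, also fitted to these 6 libraries only, the calls were 614 (267 higher, 347 lower), against 1031 without the block. Equal numbers did not deviate together, and the block costs degrees of freedom. Leaving out each library in turn gave 1390 to 1598 calls. The other scalings, pseudocounts, filters and variance settings gave 1622 to 1922. For lung against small intestine, median-ratio scaling gave 1894 higher and 2497 lower genes and quantile normalization 2034 and 1874, against 1079 and 3839. Among 229 named called genes, 163 kept the call under every alternative without a block, and none changed direction. Of 1692 recomputed list counts, 203 moved by over 1.5 times. Leaving out genes that passed the filter through 1 tissue was added after seeing the data. Read depth, which TPM does not keep, limits how low levels can be read.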

Other observations

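Cytosolic chaperones formed a group that differed in the opposite direction to the chaperones of the endoplasmic reticulum. This list was chosen after its values were seen, so its counts are a description. Of 27 tested genes of the HSP90 and HSP70 systems 12 were higher in skin and 0 lower, against 8.90% and 9.33% of all genes tested. The median log2 difference of the list was 1.01, against a median of 0.04 over all genes tested. Cacybp, which binds a ubiquitin ligase and HSP90, was at 447, 424 and 277 TPM in skin replicates 1, 2 and 4 and at 37.7, 66.7 and 33.3 TPM in the colon replicates of the same numbers (limma adjusted p = 2.71e-07). Hsp90ab1, the constitutive cytosolic HSP90, was at 3066, 3254 and 2692 TPM in skin and at 1009, 1155 and 731 TPM in colon (adjusted p = 3.24e-05). Stip1, which couples HSP70 to HSP90, was at 318, 321 and 180 TPM in skin and at 72.2, 88.3 and 51.5 TPM in colon (adjusted p = 0.000419). In none of the 3 genes did the tissues overlap, which held for 32.0% of all genes tested. The inducible genes Hspa1a, Hspa1b and Dnajb1 were not called (adjusted p = 0.567, 0.386 and 0.558). The count of 12 was 8 without skin replicate 1 and 9 to 13 without another single library.

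The chaperonin CCT, which folds actin and tubulin, and mitochondrial chaperones showed the same direction, in a list also chosen after its values were seen. Of 12 tested genes 8 were higher and 0 lower in skin, against 8.90% and 9.33% of all genes tested, with a median of 0.97. Hspd1, the mitochondrial HSP60, was at 390, 444 and 306 TPM in skin and at 122, 173 and 87.3 TPM in colon (limma adjusted p = 0.000483). Cct6a was at 115 to 127 TPM in skin and at 33.4 to 56.2 TPM in colon (adjusted p = 0.000827). The higher count was 5 with only the 2 tissues in the fit.

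Some of the most abundant genes that were higher in skin belong to none of the lists and were named after their values were seen. Ltb, which encodes lymphotoxin beta, was at 1867, 1534 and 1494 TPM in skin and at 269, 201 and 172 TPM in colon (limma adjusted p = 5.6e-11), and averaged 577 ± 109 TPM in lung (SD, n = 3) and 77.5 ± 18 TPM in small intestine (n = 4). Cd55, which protects cells from complement, was at 549, 524 and 164 TPM in skin and at 37.7, 39.1 and 58.6 TPM in colon (adjusted p = 1.15e-06). Plac8 was at 2280, 2742 and 2165 TPM in skin and at 568, 628 and 927 TPM in colon (adjusted p = 2.18e-05). For Cd69, an early activation antigen, the order was reversed, with 44.4, 52.5 and 20.8 TPM in skin and 472, 459 and 319 TPM in colon (adjusted p = 1.45e-08).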
